A study of Mus musculus with 24 samples.

Results

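Gene expression in inguinal fat at CT0, when the subjective day begins, was compared between mice that lacked Bmal1 in adipocytes and their controls. The comparison holds the 3 arrays titled Ad-Bmal1-/- at CT0 and the 3 control arrays titled CT0, which are 6 of the 24 arrays in the series, and the titles alone chose them. Ad-Bmal1-/- mice carried aP2-Cre+/- together with Bmal1fx/fx, and control mice carried Bmal1fx/fx without Cre, so both groups share the floxed alleles and no array represents aP2-Cre with an intact Bmal1 gene. Both groups had been backcrossed to C57BL/6J for 6 or more generations, ate chow, entered constant darkness 36 h before collection started and were fasted for 24 h. The sources used here state neither the age nor the sex of the mice. The remaining 18 arrays cover the same genotypes at CT6, CT12 and CT18, 3 per group, and entered the fit of the spread.

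Inguinal fat is a subcutaneous depot in which adipocytes store triglyceride, make part of it from glucose, and release fatty acids during a fast. BMAL1, the product of Arntl (Bmal1), pairs with CLOCK and binds E-boxes in the promoters of Per, Cry, Nr1d1 and Dbp. PER and CRY proteins inhibit the pair, and the REV-ERB receptors encoded by Nr1d1 and Nr1d2 repress Arntl through ROR elements, which the ROR receptors activate. The aP2 promoter is that of Fabp4, the fatty acid binding protein of adipocytes, and macrophages and endothelial cells are known to use it too. The pad also holds fibroblasts, vessels, immune cells and often a lymph node, and the arrays read RNA of the whole pad, so fewer cells of a type and less RNA per cell cannot be told apart.

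RefSeq promoter windows (build GRCm38.p6), from 250 bases before a transcript start to 50 bases after it, were searched on both strands for the E-box CACGTG, which reads the same on either strand, and for the ROR element core TAGGTCA. Of 32851 windows, 2349 (7.15%) held the E-box and 856 (2.61%) the ROR core. Of the 19177 windows of genes tested, from which the sets below come, 8.24% and 2.25% did. Among the 18 clock genes measured, 16 had windows, and 6 of their 22 windows (27.3%), those of Bhlhe41, Ciart, Cry1, Per1 and Tef, held the E-box. The ROR core lay in a window of Arntl and of Nfil3. Among the 12 genes lowest by p in Ad-Bmal1-/- fat at CT0 (described below), 7 had windows, and Adh1 alone held an E-box. Among the 12 highest by p, 9 had windows, and Chtf8 and Unc13b held one. A match is a description of the letters and not of a bound site. The windows of 3 genes are shown 5′ to 3′ on the strand of the gene, with the ROR core of Arntl and the E-boxes of Ciart, a clock repressor with 3 of them, and of Adh1 in capitals.
Arntl, chr7:113207261-113207560, forward strand: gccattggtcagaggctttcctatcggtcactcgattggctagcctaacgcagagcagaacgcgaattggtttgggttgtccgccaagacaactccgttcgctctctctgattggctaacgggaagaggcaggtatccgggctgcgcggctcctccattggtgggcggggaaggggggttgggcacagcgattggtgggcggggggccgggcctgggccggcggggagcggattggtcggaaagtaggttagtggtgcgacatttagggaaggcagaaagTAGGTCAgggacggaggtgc
Ciart, chr3:95882179-95882478, reverse strand: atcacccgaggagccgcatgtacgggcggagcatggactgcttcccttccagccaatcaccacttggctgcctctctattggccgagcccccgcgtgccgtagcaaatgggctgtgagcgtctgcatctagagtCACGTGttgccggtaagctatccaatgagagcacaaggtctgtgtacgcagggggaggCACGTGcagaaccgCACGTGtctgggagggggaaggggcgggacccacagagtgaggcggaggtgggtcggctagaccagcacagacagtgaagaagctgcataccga
Adh1, chr3:138277335-138277634, forward strand: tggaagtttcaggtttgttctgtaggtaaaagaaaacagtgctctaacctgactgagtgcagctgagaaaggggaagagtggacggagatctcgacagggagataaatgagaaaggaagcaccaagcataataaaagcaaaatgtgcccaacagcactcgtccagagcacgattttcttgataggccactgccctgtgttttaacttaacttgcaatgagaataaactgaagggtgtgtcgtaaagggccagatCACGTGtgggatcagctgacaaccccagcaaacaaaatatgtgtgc

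The arrays were first compared with each other. Over 19938 genes, Ad-Bmal1-/- replicate 2 correlated with its group at 0.976 and 0.977, while the other pairs within a CT0 group correlated at 0.991 to 0.995. On this array 400 genes lay at least 1 log2 unit from the mean of the other replicates, against 30 to 101 genes on the other 5 arrays. The mean log2 level of 12 markers of uterine epithelium was 5.62, 6.80 and 5.54 on Ad-Bmal1-/- replicates 1, 2 and 3, and 5.61, 5.76 and 5.52 on control replicates 1, 2 and 3. Among them Ltf, which encodes lactotransferrin, read 4.79, 7.29 and 4.56 in Ad-Bmal1-/- fat and 4.68, 4.94 and 4.65 in control fat. The progesterone receptor gene Pgr, also on the list and named after its values were seen, read 5.79, 9.23 and 5.86 against 5.66, 6.82 and 5.5. Markers of mammary and skin epithelium were highest on the same array, at 5.94, 6.53 and 5.87 in Ad-Bmal1-/- fat and 5.86, 5.93 and 5.94 in control fat. Which epithelium these transcripts came from was not tested. Adipocyte markers averaged 10.7, 9.98 and 10.6 in Ad-Bmal1-/- fat and 10.6, 10.5 and 10.6 in control fat, and macrophage markers 7.93, 7.34 and 8.17 against 8.09, 7.81 and 8.24. Adipoq, the adiponectin gene, and Fabp4 read at least 11.77 and 12.38 on all 6 arrays, far above the median gene level of 6.50, which fits the tissue named on the labels.

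Control replicate 2 also stood apart, in part for the same genes, as the Pgr values above and the smooth muscle values below show. It read high for genes of fatty acid synthesis, such as Fasn at 10.50 where the other controls read 8.62 and 8.40, and for smooth muscle genes, whose list mean was 9.07, 9.45 and 8.73 on the Ad-Bmal1-/- arrays and 8.08, 9.40 and 8.40 on the control arrays. Results below are therefore given with and without Ad-Bmal1-/- replicate 2, control replicate 2, or both. The share of either array in a result beyond these values was not tested.

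**Figure D1:**
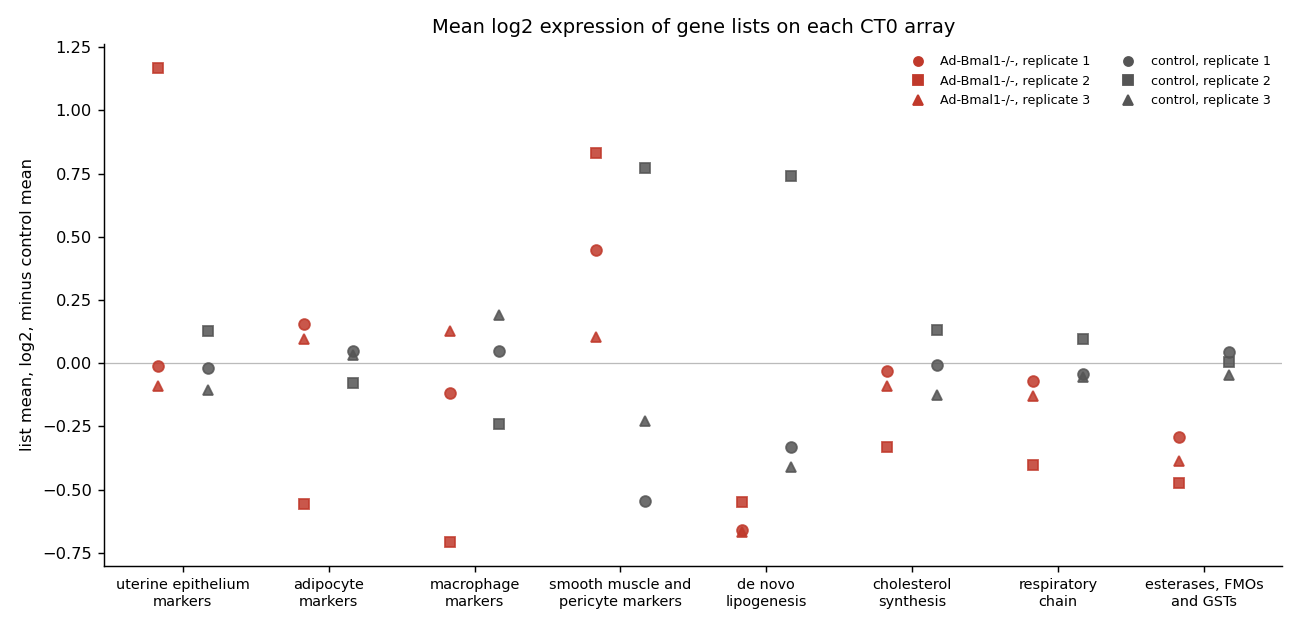
Mean log2 expression of 8 gene lists on each of the 6 CT0 arrays, minus the mean of the 3 control arrays; red points are Ad-Bmal1-/- arrays, grey points control arrays, and the symbol gives the replicate number. Ad-Bmal1-/- replicate 2 lies apart for uterine, adipocyte and macrophage markers, control replicate 2 lies apart for de novo lipogenesis, and the 3 Ad-Bmal1-/- arrays lie below the 3 control arrays for the esterase, monooxygenase and transferase list.

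Arntl itself read 7.51, 7.30 and 7.49 in Ad-Bmal1-/- fat and 7.97, 7.97 and 7.97 in control fat. All Ad-Bmal1-/- arrays lay below all controls, and the control arrays lay closer together than those of any other clock gene listed here. The log2 difference was -0.54 ± 0.16 (SE), a ratio of 0.689, and did not pass over all genes (limma adjusted p = 0.633). At CT6 the same probe set read 7.08, 6.90 and 6.88 in Ad-Bmal1-/- fat and 6.82, 6.82 and 6.54 in control fat, at CT12 6.46, 6.89 and 6.87 against 6.75, 6.04 and 6.22, and at CT18 7.43, 7.29 and 7.07 against 7.04, 7.38 and 7.55. Hence CT0, where the control level was highest, was the only time with the Ad-Bmal1-/- arrays all below the controls, and at CT6 they were all above them. The position of the probe set relative to the floxed exon was not used here, so these levels do not check the deletion.

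Of the 18 clock genes measured at CT0, 0 passed over all genes, 3 (Arntl, Nr1d1 and Per1) had an unadjusted limma p under 0.05 with a lower level in Ad-Bmal1-/- fat and 0 with a higher one. Over all genes, 2.78% were lower and 2.77% higher at this p. Without Ad-Bmal1-/- replicate 2 only Arntl remained lower at this p, and Cry2, a cryptochrome repressor gene, was higher by 0.28. Without control replicate 2 Arntl and Nr1d1 were lower and Cry1 higher, and without both arrays Cry1 and Cry2 were higher, by 0.39 and 0.28. With the replicate number as a block Rorb, a ROR receptor gene with a difference of 0.24 ± 0.12, was higher (unadjusted p = 0.0249). Groups did not overlap for Arntl and Hlf, both below the controls, against 4.47% of all genes below and 6.28% above. Nr1d1 read 8.14, 7.47 and 8.28 in Ad-Bmal1-/- fat and 8.48, 8.23 and 8.65 in control fat. Its groups overlapped by a small margin, and the difference of -0.49 ± 0.16 (adjusted p = 0.777) was -0.24 without Ad-Bmal1-/- replicate 2, the lowest array. At CT6, CT12 and CT18 the Nr1d1 differences were -0.65, -0.47 and -0.31, each with all Ad-Bmal1-/- arrays below all controls.

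Per1, a period repressor, read 7.19, 7.38 and 7.70 in Ad-Bmal1-/- fat and 7.68, 7.66 and 7.81 in control fat, a difference of -0.30 ± 0.14 (adjusted p = 0.894), and its unadjusted p was 0.0508 with the replicate number as a block and 0.0922 without Ad-Bmal1-/- replicate 2. Per2 and Per3 differed by 0.08 ± 0.10 and -0.14 ± 0.16. The cryptochrome repressor gene Cry1 read 7.64, 7.53 and 7.69 in Ad-Bmal1-/- fat and 7.14, 7.54 and 7.40 in control fat, a difference of 0.26 ± 0.13 (adjusted p = 0.900). Control replicate 2 lay within the Ad-Bmal1-/- range for Cry1. Cry2 read 6.71, 6.36 and 6.73 in Ad-Bmal1-/- fat and 6.42, 6.44 and 6.45 in control fat, with Ad-Bmal1-/- replicate 2 the lowest of the 6 arrays and a difference of 0.16 ± 0.11.

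Several clock genes had levels at CT0 that lay close between the genotypes. Nfil3, a repressor of D-box genes, read 7.80, 7.68 and 7.97 in Ad-Bmal1-/- fat and 7.38, 8.20 and 7.89 in control fat, a difference of -0.01 ± 0.26, where at CT6 and CT12 it was 0.80 and 0.77. Nr1d2 differed by 0.05 ± 0.17 at CT0 and by -0.39, -0.41 and -0.49 at CT6, CT12 and CT18. Neither passed the test of CT0 against the other times (limma adjusted p = 0.984 for both). The D-box activators Dbp, Tef and Hlf differed by 0.04 ± 0.16, 0.03 ± 0.10 and -0.14 ± 0.15. Ciart, whose promoter with 3 E-boxes is shown above, read 5.59, 5.37 and 5.44 against 5.58, 5.01 and 4.84, a difference of 0.32 ± 0.23. For Bhlhe41 the sign rested on Ad-Bmal1-/- replicate 2, which read 5.95 where replicates 1 and 3 read 7.94 and 7.63: the difference was -0.19 with it and 0.42 without it.

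**Figure D2:**
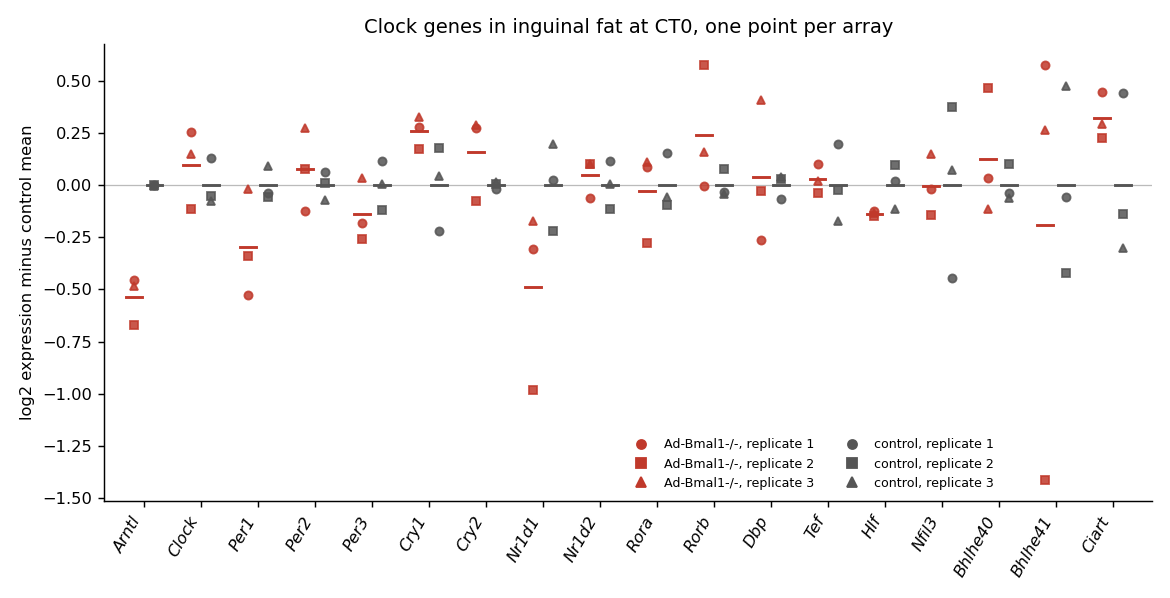
Log2 expression of 18 clock genes on each CT0 array, minus the mean of the control arrays; red points are Ad-Bmal1-/- arrays and grey points control arrays, the symbol gives the replicate number and the bars are group means. The 3 Arntl control points coincide at 7.97, with the Ad-Bmal1-/- arrays at 7.30 to 7.51, and the low point of Bhlhe41 is Ad-Bmal1-/- replicate 2.

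Across all 19938 genes, 0 passed at CT0 by limma at an adjusted p of 0.05, and 1106 (5.55%) had an unadjusted p under 0.05, 552 higher and 554 lower in Ad-Bmal1-/- fat. The groups did not overlap for 2145 genes (10.8%). With 3 arrays against 3 an exact permutation test cannot go below a two-sided p of 0.1, which every gene with groups apart reaches. Among the 9969 genes at or above the median level, 4.42% were lower and 2.93% higher at the unadjusted p. Large differences were few: 36 genes (0.181%) differed by at least 1 on the log2 scale, 20 higher (0.1%) and 16 lower (0.0802%). Without both arrays numbered 2 there were 637 genes at the unadjusted p, 227 lower (1.14%) and 410 higher (2.06%). Without Ad-Bmal1-/- replicates 1, 2 and 3 in turn, 4.1%, 1.65% and 3.86% were lower and 4.07%, 2.95% and 4.25% higher. Without control replicates 1, 2 and 3 in turn, 2.54%, 1.94% and 2.4% were lower and 2.02%, 2.66% and 2.4% higher. With the CT0 arrays alone the shares were 2.11% and 1.89%, and with the replicate number as a block 2.81% and 3.12%. Counts from these fits, above and below, are to be read against these shares.

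Of the 12 genes with the smallest p on the lower side, 4 (Ces1f, Fmo1, Ces1d and Gsta3) belong to the carboxylesterases, flavin monooxygenases and glutathione transferases, and none passed after adjustment. Ces1f and Ces1d encode carboxylesterases that hydrolyse esters, including triglyceride in the case of Ces1d. Ces1f (probe set 10580663) read 8.50, 8.17 and 8.56 in Ad-Bmal1-/- fat and 9.58, 9.67 and 9.23 in control fat, a difference of -1.08 ± 0.19 (SE, adjusted p = 0.165) and a ratio of 0.473. Ces1d (probe set 10580635) read 9.77, 9.61 and 9.72 against 10.86, 10.79 and 10.64, a difference of -1.06 ± 0.21 (adjusted p = 0.318). For both genes each Ad-Bmal1-/- array lay below every control, and without both arrays numbered 2 the differences were -0.87 and -1.0. These paralogues may share probe sequence with other Ces1 genes, so their separate levels are uncertain.

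Fmo1, a flavin-containing monooxygenase (probe set 10359571), read 9.60, 9.21 and 9.70 in Ad-Bmal1-/- fat and 10.59, 10.72 and 10.46 in control fat, a difference of -1.09 ± 0.20 (adjusted p = 0.165). Gsta3, a glutathione transferase, read 9.81, 9.05 and 9.41 against 10.79, 10.71 and 10.46, a difference of -1.23 ± 0.26 (adjusted p = 0.445). Groups lay well apart for both. Gstm6, which lay well below the median gene level, differed by -1.03 ± 0.23, and Gsta4, named outside the rule, by -0.84 ± 0.20. Of 25 measured carboxylesterase, flavin monooxygenase and glutathione transferase genes, 12 (48%) were lower at the unadjusted p and 0 higher, against 2.78% and 2.77% of all genes. The 25 include Ces1f, Fmo1, Ces1d and Gsta3. As for every list here, members were chosen with earlier results of these data known, so the shares describe and do not test. In 11 all Ad-Bmal1-/- arrays lay below all controls, against 4.47% of all genes, and 22 had a difference below 0, against 44.6% of all genes. Their median difference was -0.23, against 0.014 for all genes. The count of 12 was 10 without Ad-Bmal1-/- replicate 2, 10 without control replicate 2 and 7 without both, with medians of -0.19, -0.22 and -0.22. Members with little difference included the abundant transferases Gstm1 at -0.09 ± 0.13 and Gstp1 at -0.12 ± 0.10, and the monooxygenase gene Fmo2 at -0.02 ± 0.22, which are named outside the rule and after their values were seen.

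The other genes with the smallest p on the lower side had mixed roles. Thrsp, a regulator of fatty acid synthesis, read 9.40, 9.87 and 9.66 in Ad-Bmal1-/- fat and 10.73, 11.75 and 10.68 in control fat, a difference of -1.41 ± 0.28 (adjusted p = 0.318) that was -1.06 without control replicate 2. Kcnj15, an inwardly rectifying potassium channel, read 6.58, 6.44 and 6.52 against 7.68, 7.98 and 7.63, a difference of -1.25 ± 0.29 (adjusted p = 0.530). For Kcnj15 each group stayed within a span smaller than the gap between the groups. Auh, which acts in leucine breakdown, differed by -0.50 ± 0.12, the glutamyl-tRNA amidotransferase subunit gene Gatb by -0.36 ± 0.08, and the ADP-ribosyltransferase family gene Art3 by -0.39 ± 0.09. The list of 12 is completed by Adh1 and the interferon-induced Ifit3 and Ifi27l2a, described with their groups below.

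**Figure D3:**
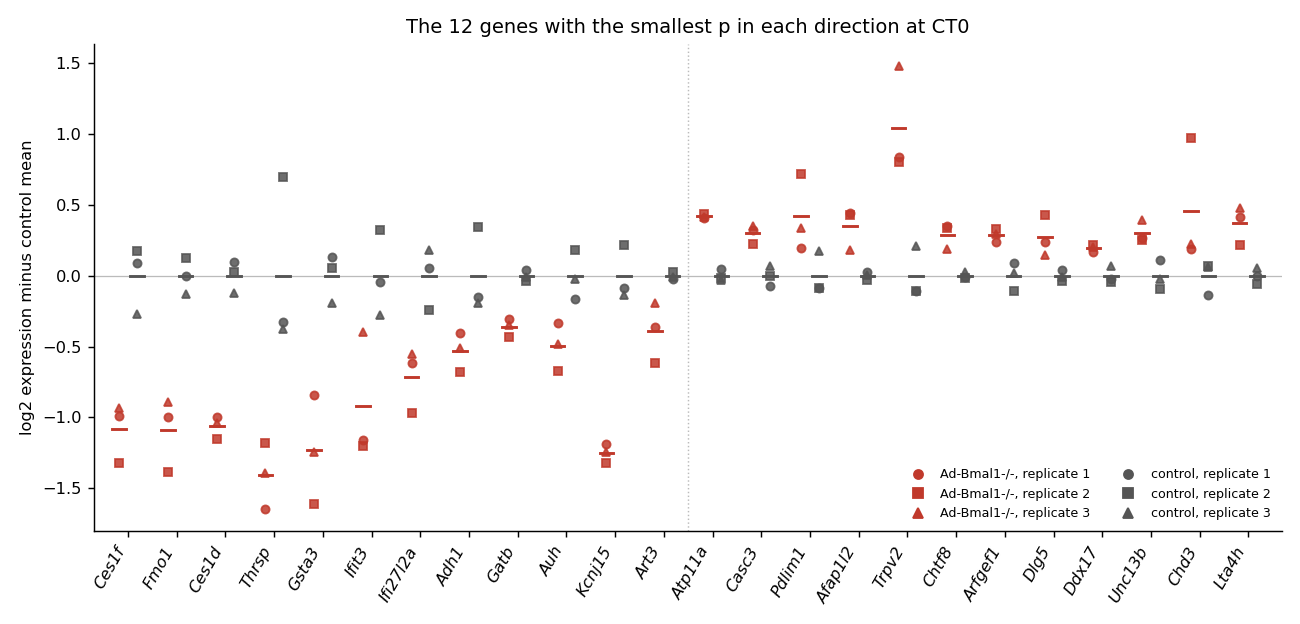
Log2 expression of the 12 genes with the smallest p on the lower side (left of the dotted line) and on the higher side (right of it) on each CT0 array, minus the mean of the control arrays; red points are Ad-Bmal1-/- arrays, grey points control arrays, and the bars are group means. The groups of all 24 genes are apart, which the choice by p favours, and Ces1f, Fmo1, Ces1d, Thrsp, Gsta3 and Kcnj15 lie more than 1 log2 unit lower on average in Ad-Bmal1-/- fat.

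Genes of de novo lipogenesis, the synthesis of fatty acids from acetyl-CoA, were lower at CT0, and most of the size rested on 1 control array. Of 14 genes, 9 (64.3%) were lower at the unadjusted p, 0 higher, 8 had groups apart and 13 had a difference below 0, with a median of -0.58. Over all genes 2.78% were lower at this p (4.42% of genes at or above the median level), 4.47% had all Ad-Bmal1-/- arrays below all controls, 44.6% had a difference below 0 and the median was 0.014. Fasn, the fatty acid synthase, read 7.83, 8.24 and 8.11 in Ad-Bmal1-/- fat and 8.62, 10.50 and 8.40 in control fat, a difference of -1.11 ± 0.48 that was -0.45 without control replicate 2 (Fasn is named outside the rule). Elovl6, which elongates palmitate, read 6.54, 7.30 and 6.82 against 7.76, 10.46 and 7.37, a difference of -1.65 ± 0.61 (adjusted p = 0.794) that was -0.68 without that array. Both genes had groups apart, with control replicate 2 far above the other controls. The ATP citrate lyase gene Acly, named outside the rule, read 7.52, 7.40 and 7.49 against 7.50, 9.15 and 7.50, and its difference of -0.58 was -0.03 without control replicate 2.

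Without control replicate 2 the lipogenesis list had 2 members lower at the unadjusted p and a median of -0.24, and without both arrays numbered 2 it had 1 member and a median of -0.18. With the CT0 arrays alone in the fit, where the other times do not enter the spread, 3 members were lower, against 2.11% of all genes. Scd1, the stearoyl-CoA desaturase, was among the least affected by that array: it read 12.16, 12.21 and 12.30 in Ad-Bmal1-/- fat and 12.68, 12.71 and 12.47 in control fat, a difference of -0.39 ± 0.13 (adjusted p = 0.794), and -0.35 without it. The malic enzyme gene Me1, which supplies NADPH, differed by -0.75 ± 0.25, and by -0.34 without it. At CT6, CT12 and CT18 the list medians were -0.16, -0.05 and 0.04.

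Fatty acid elongation and desaturation genes divided by member. Of 21 genes 7 were lower and 2 higher at the unadjusted p, against 2.78% and 2.77% of all genes. The median was -0.10 with all arrays, -0.01 without Ad-Bmal1-/- replicate 3 and -0.03 without control replicate 2, so it rested on single arrays. Hacd2, a dehydratase of the elongation cycle, read 11.15, 10.85 and 10.97 in Ad-Bmal1-/- fat and 11.59, 11.45 and 11.45 in control fat, a difference of -0.50 ± 0.13 (adjusted p = 0.532), and -0.46 without both arrays numbered 2. The desaturase gene Fads1 differed by -0.64 ± 0.17 and Tecr, the reductase of the cycle, by -0.43 ± 0.11. The related dehydratase gene Hacd1 and the elongase gene Elovl4 lay on the other side, each at 0.29 ± 0.11, and both are named outside the rule. Elovl4 differed by 0.18 without Ad-Bmal1-/- replicate 2. Without both arrays numbered 2 the counts were 2 lower and 1 higher.

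Of 20 genes of cholesterol synthesis, 5 (Fdft1, Fdps, Nsdhl, Lss and Msmo1) were lower at the unadjusted p and 0 higher, with a median of -0.13, against 2.78% lower and a median of 0.014 over all genes. Fdft1, the squalene synthase, read 7.21, 7.36 and 7.31 in Ad-Bmal1-/- fat and 7.68, 8.48 and 7.70 in control fat, a difference of -0.66 ± 0.20 (adjusted p = 0.666). The groups were apart and control replicate 2 was again the highest, and without it the difference was -0.40. The count was 3 without Ad-Bmal1-/- replicate 2, 3 without control replicate 2, 1 without both and 3 with the CT0 arrays alone in the fit.

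Genes of retinol transport and oxidation included some of the most abundant transcripts on the lower side. Adh1, an alcohol dehydrogenase that oxidises retinol and whose promoter is shown above, read 10.55, 10.27 and 10.44 in Ad-Bmal1-/- fat and 10.80, 11.29 and 10.75 in control fat, a difference of -0.53 ± 0.12 (adjusted p = 0.530). Rbp4, the plasma retinol carrier, read 11.34, 11.02 and 11.38 against 11.84, 11.80 and 11.71, a difference of -0.54 ± 0.13 (adjusted p = 0.532). Groups were apart for both genes, and for Aldh1a7 and Retsat, a retinol saturase, which differed by -1.08 ± 0.33 and -0.63 ± 0.19, the last by -0.39 without Ad-Bmal1-/- replicate 2. Of 19 members, 5 were lower at the unadjusted p, against 2.78% of all genes, the fifth being Aldh1a1 at -0.36 ± 0.16 (-0.15 without Ad-Bmal1-/- replicate 2). The member Crabp2, named outside the rule, was higher by 0.59, and by 0.04 without that array. The higher count was 2 with the replicate number as a block or without Ad-Bmal1-/- replicate 1 or 3, and 0 without control replicate 1 or 3. The median of the list was -0.02, so the members named do not speak for the rest of it, and 3 were lower without both arrays numbered 2.

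Among 18 adipokine genes, 5 were lower and 2 higher at the unadjusted p, against 2.78% and 2.77% of all genes, and the lower count was 3 without either array numbered 2 and 2 without both. Nampt, which makes the NAD precursor NMN and is a known clock output, read 8.85, 8.68 and 9.0 in Ad-Bmal1-/- fat and 9.63, 9.81 and 9.35 in control fat, a difference of -0.76 ± 0.21 (adjusted p = 0.592). Its groups were apart, and the difference without both arrays numbered 2 was -0.57. The resistin gene Retn differed by -0.31 ± 0.12, and by -0.17 without Ad-Bmal1-/- replicate 2, and Angpt1, a vascular growth factor gene, by -0.88 ± 0.33, and by -0.49 without control replicate 2. Ccl2, which encodes a monocyte attractant, lay on the other side: it read 6.91, 6.70 and 6.60 in Ad-Bmal1-/- fat and 6.38, 6.15 and 6.38 in control fat, a difference of 0.43 ± 0.11 (adjusted p = 0.532), and 0.37 without both arrays numbered 2. The macrophage markers given above were not higher on the Ad-Bmal1-/- arrays: 14 of 15 had a difference below 0, against 44.6% of all genes. Their median was -0.24, and 0.03 without Ad-Bmal1-/- replicate 2. Of these markers 2 were lower at the unadjusted p, against 2.78% of all genes, or 5 with the replicate number as a block, and 0 to 6 with 1 array left out.

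Gys2, a glycogen synthase that is a known clock output in liver, read 5.48, 4.91 and 4.85 in Ad-Bmal1-/- fat and 5.64, 6.95 and 6.00 in control fat, a difference of -1.12 ± 0.30 (adjusted p = 0.573). All of these levels but 1 lie below the median gene level of 6.50, and the difference was -0.74 without control replicate 2 and -0.65 without both arrays numbered 2. In the list of glucose uptake and glycolysis, which also holds Pdk1 at -0.40 ± 0.12, Pygl at -0.41 ± 0.16 and Pgk1 at -0.30 ± 0.12, 19 of 20 members had a difference below 0 and 4 were lower at the unadjusted p, against 44.6% and 2.78% of all genes. Pygl differed by -0.15 without control replicate 2 and Pgk1 by -0.17 without Ad-Bmal1-/- replicate 2. The count was 7 without Ad-Bmal1-/- replicate 1, 2 without either array numbered 2 and 0 without both, where the median was 0.01 against -0.14 with them.

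Mitochondrial genes showed small differences of one sign that depended on the arrays numbered 2. All 35 respiratory chain and ATP synthase genes had a difference below 0, with a median of -0.19, and 14 (40%) were lower at the unadjusted p. All 35 lie at or above the median level, where 4.42% of genes were lower, and over all genes 44.6% had a difference below 0 and 2.78% were lower. Ndufs3, a subunit of complex I, read 9.5, 9.23 and 9.47 in Ad-Bmal1-/- fat and 9.65, 9.78 and 9.64 in control fat, a difference of -0.29 ± 0.09 (adjusted p = 0.641). Sdhb, a subunit of complex II, differed by -0.35 ± 0.12, and by -0.22 without Ad-Bmal1-/- replicate 2, and the complex IV gene Cox7b by -0.22 ± 0.08. The lowest of the 6 arrays was Ad-Bmal1-/- replicate 2 for each of these 3 genes and the highest was control replicate 2. The count of 14 was 1 without the first of these arrays, 2 without the second and 0 without both, with medians of -0.09, -0.14 and -0.05. With the CT0 arrays alone in the fit the count was 7, against 2.11% of all genes.

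Of 21 genes of the tricarboxylic acid cycle 20 had a difference below 0 and 6 were lower at the unadjusted p, against 44.6% and 2.78% of all genes. The citrate synthase gene Cs was among them, at -0.28 ± 0.12 and -0.17 without Ad-Bmal1-/- replicate 2. The count was 0 without either array numbered 2 and 1 with the CT0 arrays alone in the fit. Of 18 genes of mitochondrial fatty acid oxidation 17 had a difference below 0, against 44.6% of all genes, and 3 were lower at the unadjusted p. That count was 0 without either array numbered 2 or with the CT0 arrays alone in the fit, 1 without control replicate 1 or control replicate 3, and 8 without Ad-Bmal1-/- replicate 1. All 16 genes of branched-chain amino acid breakdown had a difference below 0, again against 44.6% of all genes, with a median of -0.19, which was -0.02 without Ad-Bmal1-/- replicate 2. In that list 3 genes, Auh, Ivd and Hibch, were lower at the unadjusted p. The count was 9 without Ad-Bmal1-/- replicate 1, where 4.1% of all genes were lower, and 1 without both arrays numbered 2 (1.14%). Ad-Bmal1-/- replicate 2 is the array with low adipocyte markers and high markers of uterine and of mammary and skin epithelium, and their part in these lists was not tested.

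Of 16 glucocorticoid responsive genes, 15 had a difference below 0, and 6 were lower and 1 higher at the unadjusted p, around a median of -0.30. Over all genes 44.6% had a difference below 0, 2.78% were lower, 2.77% were higher and the median was 0.014. Tsc22d3, a mediator of glucocorticoid action, read 7.92, 7.50 and 8.10 in Ad-Bmal1-/- fat and 8.45, 8.09 and 8.24 in control fat, a difference of -0.42 ± 0.16 (adjusted p = 0.794). Its groups overlapped by 0.01, and the difference was -0.25 without Ad-Bmal1-/- replicate 2 (unadjusted p = 0.119). The sulfotransferase gene Sult1a1 differed by -0.50 ± 0.14, the metallothionein genes Mt1 and Mt2 by -0.55 ± 0.22 and -0.70 ± 0.28, and the phosphatase gene Dusp1 by -0.37 ± 0.15. Without Ad-Bmal1-/- replicate 2 Sult1a1 differed by -0.30 and Dusp1 by -0.20. The lower count was 2 without Ad-Bmal1-/- replicate 2, 1 without control replicate 1 and 0 without both arrays numbered 2, where the median was -0.26. At each of CT6, CT12 and CT18, 15 of the 16 genes had a difference below 0, with medians of -0.21, -0.10 and -0.17. Of all genes with a difference below 0 at CT0, 50.2%, 56.7% and 52.7% were below 0 at those times.

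Interferon-induced genes were represented on the lower side by Ifit3 and Ifi27l2a. Ifit3, which binds viral RNA complexes, read 7.54, 7.50 and 8.30 in Ad-Bmal1-/- fat and 8.66, 9.02 and 8.42 in control fat, a difference of -0.92 ± 0.21 (adjusted p = 0.530). Ifi27l2a read 10.96, 10.60 and 11.02 against 11.62, 11.33 and 11.76, a difference of -0.71 ± 0.16 (adjusted p = 0.530). Groups were apart for both genes, by a narrow margin for Ifit3 and a wider one for Ifi27l2a. Of 18 members of the list, 5 were lower, among them Irf7 at -0.35 ± 0.12, and 1, Oas1a at 0.30 ± 0.12, was higher at the unadjusted p, against 2.78% and 2.77% of all genes. The lower count was 9 without Ad-Bmal1-/- replicate 3, where 3.86% of all genes were lower. It was 3 without Ad-Bmal1-/- replicate 1, control replicate 1 or control replicate 2 (4.1%, 2.54% and 1.94% of all genes). Without Ad-Bmal1-/- replicate 2 it was 2 (1.65%). It was 3 with the CT0 arrays alone in the fit.

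**Figure D4:**
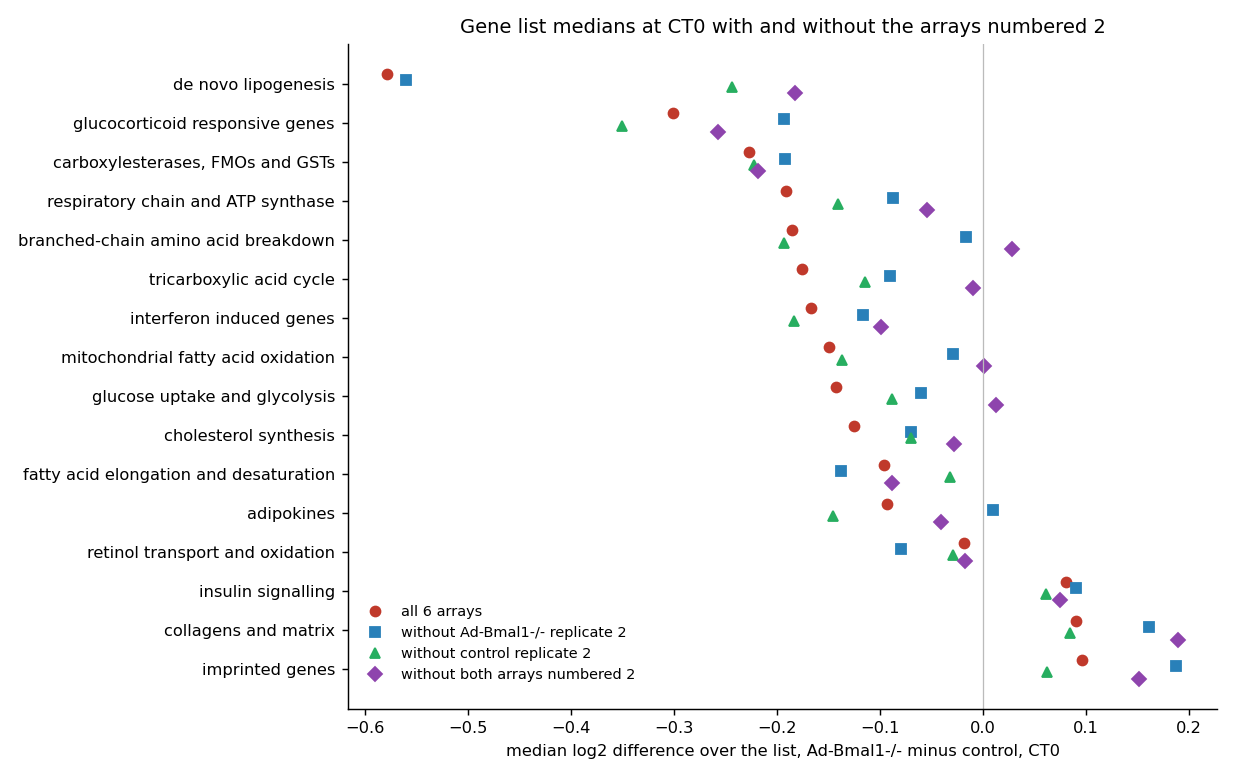
Median log2 difference over each of 16 gene lists at CT0, Ad-Bmal1-/- minus control, from all 6 arrays and without the arrays numbered 2; points left of the line at 0 are lower in Ad-Bmal1-/- fat. The median of the esterase, monooxygenase and transferase list stays between -0.19 and -0.23 in the 4 settings shown, lipogenesis moves between -0.58 and -0.18, and the mitochondrial lists move toward 0 without both arrays.

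The higher side at CT0 was led by genes with smaller differences. Atp11a, a phospholipid flippase, read 7.91, 7.94 and 7.92 in Ad-Bmal1-/- fat and 7.55, 7.48 and 7.47 in control fat, a difference of 0.42 ± 0.09 (SE, adjusted p = 0.445). Casc3, a core protein of the exon junction complex, read 8.25, 8.16 and 8.28 against 7.86, 7.93 and 8.0, a difference of 0.30 ± 0.07 (adjusted p = 0.532). The groups of both genes were tight and apart. Trpv2, a cation channel, had the largest difference among the 12: it read 7.33, 7.29 and 7.97 against 6.38, 6.38 and 6.70, a difference of 1.04 ± 0.29 (adjusted p = 0.598) and a ratio of 2.06. Lta4h, which makes leukotriene B4, differed by 0.37 ± 0.11, the RNA helicase gene Ddx17 by 0.20 ± 0.06 and the LIM domain gene Pdlim1 by 0.42 ± 0.10. Pdlim1 differed by 0.27 without Ad-Bmal1-/- replicate 2 and by 0.23 without both arrays numbered 2. The chromatin remodeller gene Chd3 differed by 0.46 ± 0.14, and by 0.21 without Ad-Bmal1-/- replicate 2, which read 8.61 where replicates 1 and 3 read 7.83 and 7.86. The remaining genes Afap1l2, Chtf8, Arfgef1, Dlg5 and Unc13b differed by 0.27 to 0.35.

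The imprinted gene Zim1, a zinc finger gene, had a difference of 2.35 ± 0.82 (adjusted p = 0.794) and a large spread within groups. It read 9.54, 8.88 and 10.13 in Ad-Bmal1-/- fat and 7.51, 6.60 and 7.40 in control fat, so the groups were apart. Its neighbour in the same imprinted domain, Peg3, read 11.40, 10.67 and 11.48 against 10.67, 9.95 and 10.49, with groups that met at 10.67 after rounding (0.82 ± 0.40). Usp29 of that domain differed by 0.29 ± 0.10 at levels near background, 4.52 to 4.70 against 4.23 to 4.41. Of 15 imprinted genes 2 (Zim1 and Usp29) were higher and 1 (Sgce, at -0.27 ± 0.10, and -0.15 without Ad-Bmal1-/- replicate 2) lower at the unadjusted p, against 2.77% and 2.78% of all genes. The higher count was 5 without Ad-Bmal1-/- replicate 2 and 4 without control replicate 1, against 2.95% and 2.02% of all genes, with 0 lower in both cases. At CT6 Zim1 read 9.99, 9.86 and 10.39 in Ad-Bmal1-/- fat and 8.40, 7.28 and 8.12 in control fat, again apart. At CT12 and CT18 its groups overlapped, with differences of 1.58 and 0.59.

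Insulin signalling genes had a median of 0.08, and Pik3cb, a catalytic subunit of phosphoinositide 3-kinase, was the 1 of 21 that was higher at the unadjusted p, against 2.77% of all genes. A count of 1 says little about the list as a whole. It read 9.07, 8.63 and 9.36 in Ad-Bmal1-/- fat and 8.44, 8.52 and 8.39 in control fat, a difference of 0.58 ± 0.19 (adjusted p = 0.786). The groups were apart, narrowly for Ad-Bmal1-/- replicate 2, and the count was 4 without that array, 2 without Ad-Bmal1-/- replicate 1 and 0 without Ad-Bmal1-/- replicate 3. Of 23 collagen and matrix genes, 3 (Col6a1, Col1a1 and Col6a3) were higher and 0 lower, against 2.77% of all genes higher, with a median of 0.09. That count was 0 with the replicate number as a block, 5 without control replicate 2, and 0 without Ad-Bmal1-/- replicate 1, control replicate 1 or control replicate 3. Smooth muscle and pericyte markers had a median of 0.40, against 0.014 for all genes. Of these 12 markers 1 was higher at the unadjusted p, against 2.77% of all genes (Cnn1, at 0.97 ± 0.43, 0.62 without Ad-Bmal1-/- replicate 2 and 1.68 without control replicate 2). The count was 5 with the replicate number as a block, 9 without control replicate 2 and 6 without Ad-Bmal1-/- replicate 3, and 0 when any of the other 4 arrays was left out, and the median ran from 0.13 without control replicate 1 to 0.83 without control replicate 2. The part of smooth muscle content in the matrix genes was not tested.

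The 24 genes named at CT0 were then read at the other times. The sign and size of their differences there played no part in the choice, but the arrays of those times did, through the spread behind the p at CT0 and the filter on mean level. Of the 12 genes lower at CT0, 11 had the same sign at CT6, 10 at CT12 and 11 at CT18, against 50.2%, 56.7% and 52.7% of all genes with a difference below 0 at CT0. Among genes at or above the median level the shares were 50.7%, 56.5% and 57.6%. At CT6, 6 of the 12 (Ces1f, Fmo1, Ces1d, Gsta3, Adh1 and Kcnj15) were lower at an unadjusted p under 0.05, where 2.06% of all genes were, and none passed after adjustment. The counts were 0 at CT12 and 2 (Ifit3 and Adh1) at CT18, where 1.66% and 2.98% of all genes were lower. The differences at CT6 were smaller than those at CT0: -0.77 for Ces1f, -0.69 for Fmo1, -0.71 for Ces1d and -0.80 for Kcnj15.

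Of the 12 genes higher at CT0, 6 had the same sign at CT6, 5 at CT12 and 4 at CT18, against 51.6%, 43.9% and 51.8% of all genes with a difference above 0. Among genes at or above the median level, from which the 12 were taken, the shares were 46.2%, 49% and 39.7%. Trpv2 and Lta4h were the clearest of those that recurred, with differences of 1.01 and 0.37 at CT6 and groups apart there too. Trpv2 read 7.17, 7.47 and 7.84 in Ad-Bmal1-/- fat at CT6 and 6.68, 6.29 and 6.49 in control fat. The differences of Atp11a and Casc3 at CT6, CT12 and CT18 lay between -0.13 and 0.02. Among all 554 genes lower at the unadjusted p at CT0, 59.9%, 61.4% and 56.5% had the same sign at CT6, CT12 and CT18, and among the 552 higher, 56%, 51.3% and 46.9%.

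The mean level of the 12 lower genes gives these values by array. At CT0 it was 8.99, 8.77 and 9.04 in Ad-Bmal1-/- fat and 9.78, 9.97 and 9.68 in control fat, and at CT6 9.35, 9.43 and 9.28 against 9.77, 9.73 and 9.73. Groups were apart at both times. At CT12 it was 9.91, 9.29 and 9.52 against 9.61, 9.80 and 9.91, and at CT18 9.55, 9.40 and 9.89 against 9.98, 9.90 and 9.80. Ad-Bmal1-/- replicate 1 at CT12 and replicate 3 at CT18 lay among the controls, and control replicate 1 at CT12 and replicate 3 at CT18 were the lowest of theirs. Without these 4 arrays, which an earlier analysis had picked out because genotype-dependent genes read there like the opposite genotype, the median difference of the 12 genes was -0.36 at CT12 and -0.51 at CT18, against -0.16 and -0.33 with them. Without them 7 of the 12 genes higher at CT0 had the same sign at CT18, against 4 with them.

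**Figure D5:**
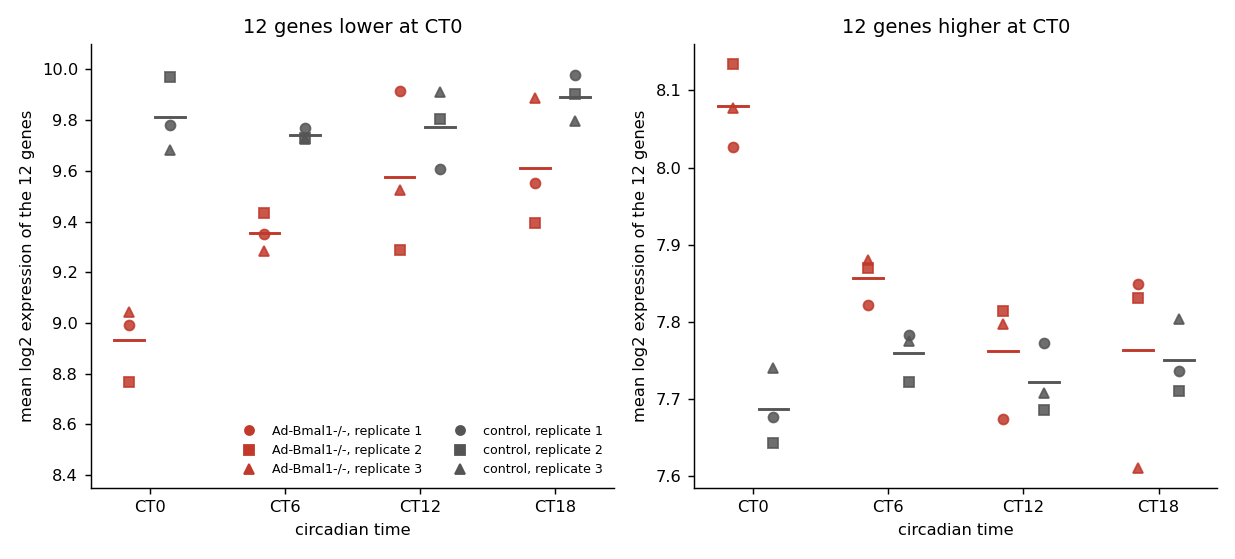
Mean log2 expression of the 12 genes lower at CT0 (left panel) and the 12 higher at CT0 (right panel) on each of the 24 arrays by circadian time; red points are Ad-Bmal1-/- arrays, grey points control arrays, bars are group means and the vertical axes do not start at 0. The genes were chosen by their p at CT0, whose spread came from all 24 arrays, and by mean level. In the left panel the groups are also apart at CT6, and 1 Ad-Bmal1-/- array each at CT12 and CT18 lies among the controls.

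The difference at CT0 was also tested against the mean difference at the other times. By limma 0 genes passed, and 976 (4.9%) had an unadjusted p under 0.05, 573 (2.87%) with a higher and 403 (2.02%) with a lower difference at CT0. The lowest p on the lower side belonged to Asnsd1, Myl1, Arntl, Mrpl36, Ndufaf2 and Lonrf3, each with adjusted p = 0.984. Arntl had a difference of -0.54 at CT0 that was lower by 0.73 ± 0.18 than the mean at the other times. Asnsd1 read 8.46, 8.54 and 8.61 in Ad-Bmal1-/- fat and 8.90, 8.85 and 8.73 in control fat, with a difference of -0.29 at CT0 and 0.19 and 0.20 at CT6 and CT12. Its groups were apart at CT0, with all Ad-Bmal1-/- arrays lower. Mrpl36, of the mitochondrial ribosome, and Ndufaf2, an assembly factor of complex I, differed by -0.41 ± 0.10 and -0.25 ± 0.08 at CT0, with differences of 0.02 to 0.16 at the other times. Myl1, a skeletal muscle myosin light chain gene, differed by -0.68 ± 0.18, and Lonrf3 by -0.40 ± 0.13. On the higher side Atp11a, Casc3, Afap1l2, Ddx17, Chd3 and Lemd3, a protein gene of the inner nuclear membrane, had the smallest p. Since 0 genes passed, no difference is called particular to CT0.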

How the data were processed

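Values are on the log2 scale in the table the authors deposited, and came from RMA per the submitters' processing notes. Each array started from 50 ng of RNA, per the labels' protocols. The values were used as deposited. Precision is limited by how many arrays each group has, since arrays carry no read depth. Of 35556 probe sets, 21789 had 1 gene symbol, 1621 several and 12146 none here, and the probe set with the highest mean stood for a gene, which left 19938 genes. Names come from the platform annotation, checked through Entrez numbers against RefSeq (GRCm38.p6). Where the probe sets and the floxed exon lie was not used here.

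A model of the 8 group means was fitted to all 24 arrays with limma 3.58.1 in R 4.3.3 (16 residual and 5.03 prior degrees of freedom), with Benjamini-Hochberg adjustment over all genes and a threshold of 0.05. Differences are Ad-Bmal1-/- minus control, with the standard error (SE) of that fit, and p-values come from it unless another test is named. The labels number the mice as biological replicates. On simulated data for the CT0 difference over 19938 genes, 67.2% of genes changed by 0.5 log2 units, 92.5% changed by 1 and 100% changed by 2 were recovered, with 13 false calls. The simulated noise was normal and independent between arrays, around the same mean in all groups, and no simulated array stood apart as those numbered 2 did. These shares therefore do not give the recovery on the real arrays, where 36 genes differed by at least 1 and 0 passed. The members and the 46 gene lists were chosen with earlier results of these data known, so lists are described by counts and medians, to be read against the shares and the median over all genes that the text gives. Named genes are, per direction, the 12 of smallest CT0 p among genes with a regular symbol at or above the median level, all 18 clock genes, up to 5 members with the smallest p of each list described, and 6 in each direction for CT0 against the other times. Lists were not tested.

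At CT0 the deviations of same-numbered arrays from their group means correlated at 0.19, 0.37 and 0.33, and over the 4 times 5 of 12 such pairs were over 0.1 (from -0.37 to 0.37). The pairing at CT0 thus comes from the data and not from the labels, and the fit with the replicate number as a block is given where it changes a count by over 1.5 times. Other alternatives were CT0 arrays alone, leaving out each CT0 array, both CT0 arrays numbered 2 (chosen after seeing the data) or 4 arrays of CT12 and CT18, quantile normalization, brighter genes, the mean of probe sets, array weights and a trended robust prior. Promoter motifs were found by exact match in Python 3.11.15.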

Additional observations from a re-analysis of the deposited data

Results flagged for a closer look

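Some named genes had all Ad-Bmal1-/- arrays on one side of the controls at CT0 and on the other side at another time. In each case the difference between those times was not tested by itself, and the test of CT0 against the mean of the other times gave adjusted p = 0.984. Arntl differed by -0.54 at CT0 and 0.23 at CT6. Atp11a differed by 0.42 at CT0 and -0.13 at CT12. Casc3 differed by 0.30 at CT0 and -0.07 at CT6. Pdlim1 differed by 0.42 at CT0 and -0.14 at CT18. Ddx17 differed by 0.20 at CT0, -0.08 at CT6 and -0.09 at CT18. Asnsd1 differed by -0.29 at CT0, 0.19 at CT6 and 0.20 at CT12. Lonrf3 differed by -0.40 at CT0 and 0.28 at CT6. Tecr differed by -0.43 at CT0 and 0.14 at CT18, and Cox7b by -0.22 at CT0 and 0.15 at CT18.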

How the results depend on the processing

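No gene passed at CT0 in 14 of 15 alternatives. Without the 4 arrays of CT12 and CT18 that lay toward the other genotype, 6 genes passed by limma at CT0 (Ces1d, Fmo1, Ces1f, Kcnj15 and Gsta3 lower, Zim1 higher), with adjusted p from 8.95e-05 to 0.00825, and 1 (Arntl, adjusted p = 0.0192) for CT0 against the other times. In this fit the CT0 arrays and differences stayed the same and the estimate of the spread changed. Because the 4 arrays were picked out through genotype-dependent genes, that choice favours small p-values for such genes. The p-values of this fit are therefore not relied on here. Why the 4 arrays read as they did was not tested. Without both CT0 arrays numbered 2, 1 gene passed for CT0 against the other times, Rdh18-ps, named after its values were seen, which was lower by 0.97 (adjusted p = 0.0286); the cause was not tested. The replicate block left 0 genes past the threshold at CT0, with 1184 at an unadjusted p under 0.05 against 1106, and changed no call after adjustment. With 1 CT0 array left out, 0 genes passed each time, and 909 to 1629 genes had an unadjusted p under 0.05. Of the 24 genes named at CT0, 0 turned sign in the alternatives and 5 moved by over 1.5 times in at least 1. With 3 arrays per group, signal and array number limit the precision.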
